A study of Mus musculus with 16 samples.

Results

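Triglyceride is the form in which the liver stores fatty acids, and 34 genes that make it, package it or break it down were followed here through liver regrowth. The genes were a list of enzymes and lipid droplet proteins, matched by mouse symbol to the counted gene identifiers, and all 34 were found among 54838. The list covers acyltransferases that add the first fatty acids to the glycerol backbone, phosphatidate phosphatases and the enzymes of the last acylation. It also covers perilipins, other droplet proteins, lipases, and proteins that hold lipases back. The list uses no measured value, but it was chosen with earlier results of these data known.

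In hepatocytes, fatty acids are joined to glycerol-3-phosphate at the endoplasmic reticulum by GPAT enzymes, then by AGPAT enzymes. Lipins remove the phosphate to give diglyceride, and DGAT enzymes add the last fatty acid. The triglyceride buds off as droplets coated by perilipins and CIDE proteins. Adipose triglyceride lipase (Pnpla2), hormone-sensitive lipase (Lipe) and monoglyceride lipase (Mgll) take it apart step by step. The regrowing liver is known to fill with droplets for a time after partial removal.

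Messenger RNA was sequenced from whole liver of male wild-type C57BL/6J mice. In the injection experiment, 3 livers came from mice given carbon tetrachloride (CCl4), a solvent that injures hepatocytes around the central vein, in an equal volume of olive oil, and 3 from mice given olive oil alone. Both injections were intraperitoneal at 2 µL per g of body weight, with livers taken on day 3. In the surgical experiment, partial hepatectomy (PH) gave 5 samples labelled day 0 and 5 taken 3 days after surgery. There was no sham-operated group among these samples, and day 0 tissue is the control. The labels do not say that each sample came from its own animal, so p-values measure the spread between these samples.

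Total counts were 2795909 to 8647503 per library, so that 3 counts were worth 0.369 to 1.03 CPM (counts scaled to a common library total with TMM factors). All 16 livers held hepatocyte transcripts, with 8 markers summing to 80651 to 138908 CPM. One library of the CCl4 group stood apart. Replicate 1 correlated with the rest of its group at a mean of 0.922, against 0.946 and 0.948 for those. Also, 2 PH day 3 libraries carried skeletal muscle transcripts, a sum of 1686 CPM over 4 markers in replicate 12N and 106 CPM in replicate 14N, against at most 2.34 CPM in every other library. Results that rest on these libraries are given with and without them. In whole tissue, fewer cells of a type and less RNA per cell cannot be told apart.

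Promoter sequences are shown for 4 of the genes that moved, so that the stretch before a RefSeq start site of each can be read. They are from RefSeq (GRCm38.p6), 5′ to 3′, and end at the start site, or for Fitm1 at the first exon base of the count annotation. All 250 bases of the Mgll window lie in exons that the count annotation gives to another gene, and the Lpin2 window lies inside the gene span of that annotation but in none of its exons. Capitals mark the E-box CACGTG, the site read by several basic helix-loop-helix factors.
Fitm1, upstream of the RefSeq start, chr14:55575424-55575616, plus strand: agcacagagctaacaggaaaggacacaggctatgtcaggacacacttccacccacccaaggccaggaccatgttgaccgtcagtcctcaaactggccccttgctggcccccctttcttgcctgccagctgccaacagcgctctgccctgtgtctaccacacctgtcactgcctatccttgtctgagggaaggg
Mgll, upstream of the RefSeq start, chr6:88724162-88724411, plus strand: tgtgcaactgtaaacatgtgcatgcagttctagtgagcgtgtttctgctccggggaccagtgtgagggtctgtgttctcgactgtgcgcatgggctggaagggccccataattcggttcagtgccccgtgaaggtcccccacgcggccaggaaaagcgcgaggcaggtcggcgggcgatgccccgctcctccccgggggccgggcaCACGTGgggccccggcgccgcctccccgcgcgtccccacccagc
Abhd6, upstream of the RefSeq start, chr14:8002638-8002887, plus strand: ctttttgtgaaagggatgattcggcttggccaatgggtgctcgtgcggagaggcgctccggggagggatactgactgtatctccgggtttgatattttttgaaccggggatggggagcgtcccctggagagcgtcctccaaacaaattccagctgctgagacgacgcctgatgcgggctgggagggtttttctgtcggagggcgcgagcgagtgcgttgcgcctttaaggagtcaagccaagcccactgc
Lpin2, upstream of the RefSeq start, chr17:71183282-71183531, plus strand: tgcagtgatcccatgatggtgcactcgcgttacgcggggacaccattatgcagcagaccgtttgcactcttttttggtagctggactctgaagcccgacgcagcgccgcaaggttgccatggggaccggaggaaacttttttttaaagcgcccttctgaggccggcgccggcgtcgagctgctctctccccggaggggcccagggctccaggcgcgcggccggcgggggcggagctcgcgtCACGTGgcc
The RefSeq table held 39 start sites for 28 of the 34 genes, and the 250 bases before each were searched on both strands. The E-box was in 3 of the 39 windows, or 7.69%, against 6.02% of all 32817 windows. It lay 44 bases before the start of Mgll, 9 before that of Lpin2 and 155 before that of Lipe, in a window that lies wholly in exons of Lipe itself. The sterol regulatory element TCACNCCAC (1.05% of all windows) and the direct repeat with 1 base between its copies (0.338%) were in none of the 39. A match is a run of letters and not a shown binding site.

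The order of the genes in control livers was set by levels per length, as TPM (counts per exon length, scaled to a common total), over 3 olive oil and 5 PH day 0 libraries. Cideb, a droplet protein that also serves the loading of lipoproteins, had the highest median at 285 TPM (232 to 339). Dgat2, the diglyceride acyltransferase that esterifies newly made fatty acids, followed at 270 TPM (206 to 326). Agpat2, the main lysophosphatidate acyltransferase of liver, was at 193 TPM (116 to 239). Plin2, the droplet coat protein of hepatocytes, was at 166 TPM (97.5 to 325). Pooled over both control groups, each of these ranges overlapped the next. In olive oil livers alone, Cideb (244 to 339 TPM) and Dgat2 (275 to 326 TPM) lay above Agpat2 (116 to 177 TPM) and Plin2 (97.5 to 197 TPM). At PH day 0 the ranges of the leading 4 overlapped. Their order was not compared library by library. Mgll came next at 52.0 TPM (39.1 to 81.8), below the range of each of those 4. Ranked by CPM without regard to length, 4 of these 5 genes were again among the highest 5.

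**Figure D1:**
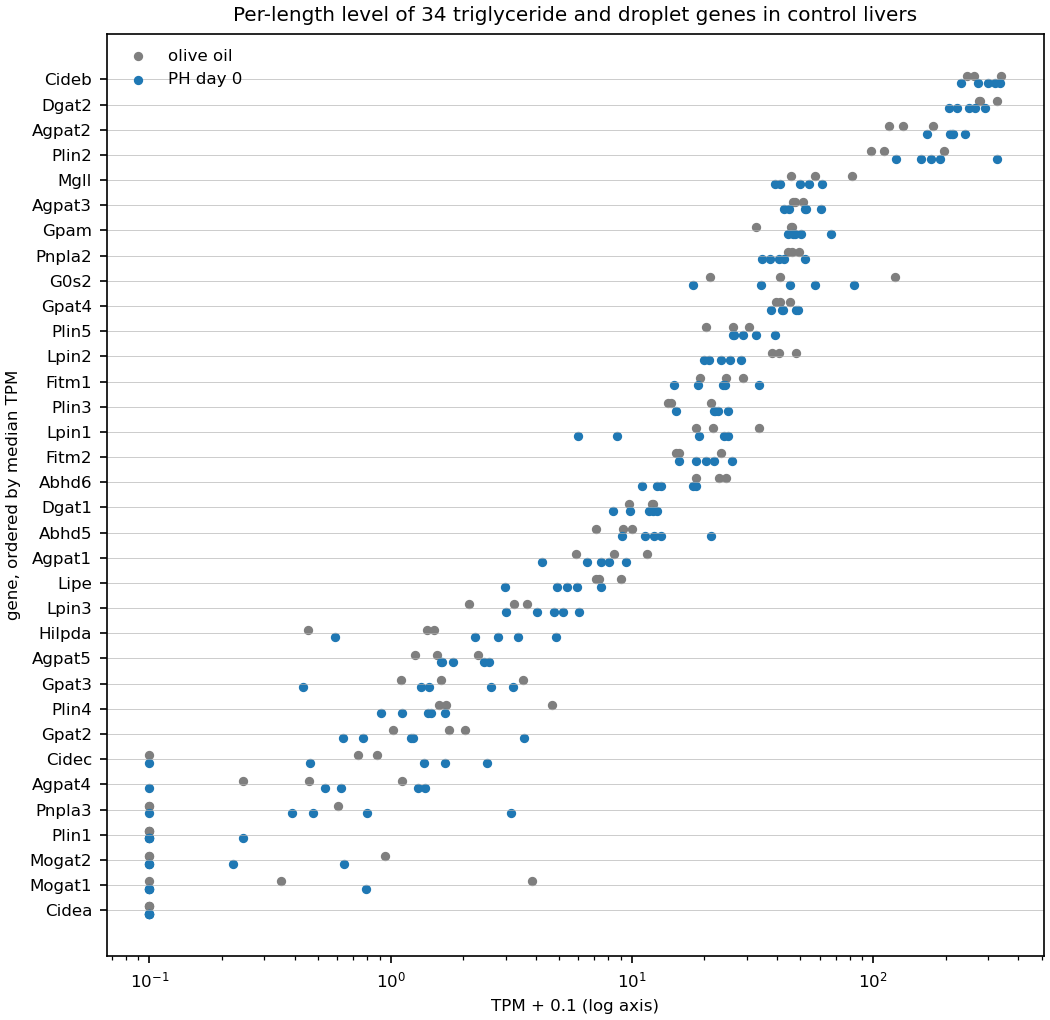
Level per length (TPM + 0.1, log axis) of the 34 genes in every olive oil (grey) and PH day 0 (blue) library, ordered by median. Cideb, Dgat2, Agpat2 and Plin2 lead, and Plin1, Mogat2, Mogat1 and Cidea, whose medians are 0, close the list.

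The isoforms of a step differed widely in level. Of the GPAT enzymes, Gpam (the mitochondrial form) at 46.2 TPM and Gpat4 at 42.2 TPM were far above Gpat3 at 1.43 and Gpat2 at 1.12 TPM. Dgat1, the other diglyceride acyltransferase, was at 11.9 TPM (8.27 to 12.6), below the lowest Dgat2 value. Plin5, Plin3 and Plin4 had medians of 27.6, 21.5 and 1.43 TPM. The adipocyte forms Plin1 and Cidea had a median of 0 TPM, and Cidea had no count in any of the 8 control libraries. The monoglyceride acyltransferases Mogat1 and Mogat2 also had a median of 0 TPM.

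Which of these genes changed 3 days after toxic injury was read from CCl4 against olive oil livers. Of the list, 6 fell and 0 rose among the 26 that could be tested (8 were too low for the filter). They were the acyltransferases Dgat2 and Gpat4, the droplet-forming protein Fitm1, and the lipases Lipe, Mgll and Abhd6. Over all 11337 genes tested, 22.9% were called (11.3% rose and 11.6% fell, adjusted p under 0.05), and the 6 of 26 is 23.1%. The count of called genes was therefore near the background, while all 6 lay on the falling side. The median log2 fold change of the 26 was -0.19, against 0.01 over all genes. Of the 7 genes with higher values, 3 (Gpat3, Lpin3 and Plin2) had an unadjusted p under 0.05, DESeq2 called Plin2 higher, and limma-voom called none higher. Scaling by library size alone moved the median of all genes by 0.45 and split the calls into 4 risen and 3 fallen. Over all 11337 genes it called 2973 risen and 423 fallen.

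In GRCm38 coordinates of the count files, Fitm1 (ENSMUSG00000022215) spans chr14:55575617-55576954 on the plus strand. This endoplasmic reticulum protein, which binds triglyceride, helps droplets form and is best known from muscle, fell most. Its CPM was 14.5, 13.4 and 11.1 in olive oil livers and 0.212, 0.614 and 0.489 in CCl4 livers. Those CCl4 values rest on 1, 5 and 3 counts, against 58, 61 and 47. The groups were far apart, and the ratio of the summed counts (166 and 9), scaled for depth, was 27.3 (olive oil over CCl4) with an exact 95% interval of 14.1 to 60.9 that covers counting error only. The fitted change was -4.75 ± 0.42 (SE, log2, adjusted p = 6.9e-05), and it was called under each of the 13 alternatives (-5.07 to -4.29). The skeletal muscle markers were near 0 on both sides, at 0.219 to 1.18 CPM in olive oil and 0.489 to 0.635 CPM in CCl4 livers, with Acta1 at 0 in all 6. Its close relative Fitm2, the widely expressed form, was at -0.20 ± 0.23 (adjusted p = 0.57).

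Dgat2 (ENSMUSG00000030747, chr7:99153658-99182719, minus strand) was the next to stand apart. It went from 519, 480 and 508 CPM to 229, 172 and 185 CPM, so that the highest CCl4 value was under the lowest olive oil value by a wide margin. The change was -1.38 ± 0.18 (adjusted p = 0.00069), to 38.4% of the olive oil level, and it was called under all 13 alternatives. Dgat1, which performs the same reaction, was at 19.3, 20.6 and 17.6 CPM in olive oil and 22.2, 18.3 and 14.0 CPM in CCl4 livers. Its change of -0.10 ± 0.21 (adjusted p = 0.78) did not pass. Gpat4 (ENSMUSG00000031545, chr8:23171265-23208346, minus strand), an enzyme of the first acylation, went from 136, 154 and 180 CPM to 96.1, 74.7 and 101 CPM. Without overlap between the groups, it fell by 0.81 ± 0.17 on the log2 scale (adjusted p = 0.0072), and with library size scaling the call was lost (-0.37, adjusted p = 0.19).

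Of the 5 tested lipases and lipase activators, 3 fell (60%), beside 11.6% of all genes, a share that rests on 5 genes only. The 3 are hydrolases of the later steps. Mgll (ENSMUSG00000033174, chr6:88724412-88828360, plus strand), which releases the last fatty acid, was at 215, 130 and 175 CPM in olive oil and 88.7, 78.7 and 54.6 CPM in CCl4 livers, a change of -1.24 ± 0.23 (adjusted p = 0.0044). Lipe (ENSMUSG00000003123, chr7:25379527-25398710, minus strand), which cuts diglyceride, was at 27.0, 23.9 and 24.7 CPM against 14.4, 12.3 and 13.5 CPM, a change of -0.93 ± 0.18 (adjusted p = 0.0046). In neither gene did the groups overlap. The Lipe call was lost with library size scaling (-0.49, adjusted p = 0.12). Abhd6 (ENSMUSG00000025277, chr14:8002902-8056763, plus strand), another monoglyceride hydrolase, was at 28, 24.3 and 34.8 CPM against 20.9, 19.4 and 18.6 CPM, or -0.58 ± 0.18 (adjusted p = 0.044). That last call was lost in 7 of 13 alternatives, among them DESeq2 (adjusted p = 0.074), library size scaling (-0.14, adjusted p = 0.66), and the fits without CCl4 replicate 2 (0.12), CCl4 replicate 3 (0.12), olive oil replicate 1 (0.095) or olive oil replicate 3 (0.17).

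**Figure D2:**
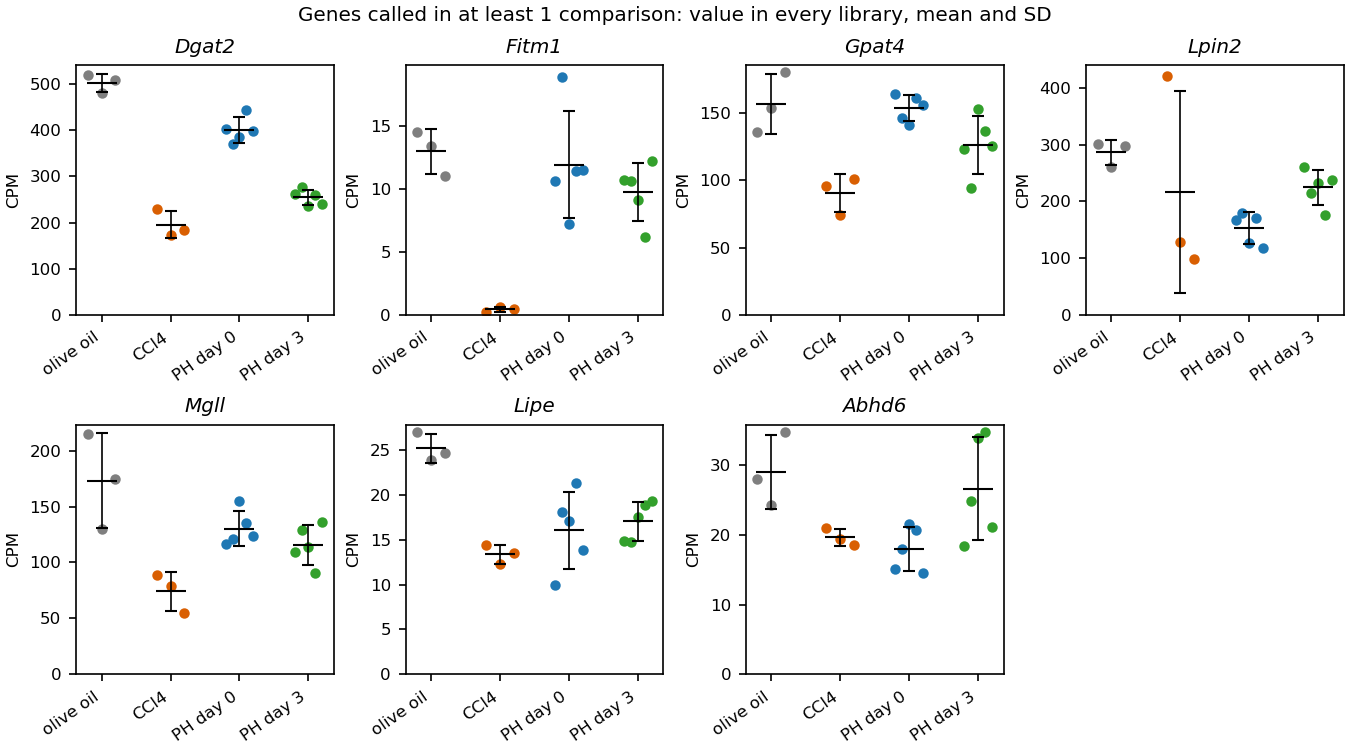
CPM of the 7 genes called in at least 1 comparison, in each library of the 4 groups (points), with mean and SD (bars). Fitm1 stays under 1 CPM in the CCl4 livers, Dgat2 is lower in both regrowing groups, and the Lpin2 bar of the CCl4 group is set by the 1 library at 421 CPM.

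Markers of hepatocytes near the central vein (pericentral) and of other cells also differed between these groups. The 8 pericentral markers, among them Glul and Cyp2e1, summed to 10246 to 12066 CPM in olive oil livers and 793 to 1549 CPM in CCl4 livers, and 5 of the 8 fell. The periportal markers summed to 5195 to 6106 CPM and 1514 to 4636 CPM, with 3 of 7 fallen and 1 risen. The 11 macrophage markers summed to 159 to 429 CPM and 577 to 729 CPM, with 7 risen. Stellate cell and fibroblast markers summed to 163 to 200 CPM and 388 to 971 CPM, with 5 of 9 risen, and erythroid markers to 282 to 311 CPM and 68.3 to 123 CPM, with 3 of 3 fallen. The part of these cells in the changes of the 6 genes was not tested.

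CCl4 replicate 1 differed from its group in genes of droplet coating and of phosphatidate breakdown. Lpin1, a lipin that also acts as a coactivator in the fasted liver, was at 197 CPM there and at 14.0 and 23.6 CPM in replicates 2 and 3, with olive oil at 168, 99.7 and 125 CPM. Lpin2, the main lipin of liver, was at 421, 129 and 98.5 CPM, against 301, 260 and 298 CPM. Pnpla2, the lipase that opens triglyceride breakdown, was at 102, 29.5 and 39.9 CPM, against 77.0, 78.2 and 80.0 CPM. In each of these 3 genes, replicate 1 lay above every olive oil library and the other CCl4 libraries below every one. With all 3 libraries none passed, at -0.77 ± 1.14, -0.42 ± 0.57 and -0.49 ± 0.48 (adjusted p = 0.68, 0.65 and 0.52). Without replicate 1 all 3 were called lower, at -2.83 ± 0.30, -1.34 ± 0.15 and -1.19 ± 0.15 (adjusted p = 0.0003, 1.5e-05 and 3.8e-05). In that fit 9 genes of the list fell in place of 6, the first 6 included. Calls over all genes also grew, to 1677 risen and 1836 fallen of 11741, from 1279 and 1320 of 11337 with all libraries.

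Among the droplet coat genes, Plin2, Plin4, Plin5 and Cidec were highest in the same library. Cideb was lowest in it, at 172 CPM against 201 and 185 CPM in the other CCl4 libraries. Plin2 was at 892, 515 and 277 CPM in CCl4 livers and 357, 218 and 205 CPM in olive oil livers, a change of 1.09 ± 0.43 (adjusted p = 0.12). The fit without replicate 1 gave 0.60 ± 0.39 (adjusted p = 0.32), and that without replicate 3 called it higher at 1.42 (adjusted p = 0.016). Cidec, which fuses droplets into larger ones, was at 41.5 CPM in replicate 1 and 2.95 and 0.489 CPM in the others, with olive oil at most 0.750 CPM. Hilpda, an inhibitor of Pnpla2 that low oxygen induces, was at 17.6, 3.19 and 0.978 CPM, with olive oil at most 0.876 CPM. Neither passed the filter of this comparison. In the fit of all 16 libraries, where both were tested, the change after CCl4 was 4.89 ± 1.69 for Cidec (adjusted p = 0.045) and 3.45 ± 0.93 for Hilpda (adjusted p = 0.0076). These values include replicate 1. Cidec was not called in any other fit that tested it (adjusted p = 0.099 to 0.36). Hilpda was also called without a filter (4.4e-06) and without CCl4 replicate 3 (0.014). It was not called with a filter of 1 CPM (0.088) or without any 1 olive oil library (0.19 to 0.23). Plin4 was at 17.4 CPM in replicate 1 and at 4.30 and 4.24 CPM in the others, with olive oil at 4.75, 4.82 and 15.8 CPM. Plin5, the perilipin of oxidative tissues, was at 52.5 CPM in replicate 1 and 23.2 and 27.2 CPM in the others.

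In lists of genes known to respond to fasting and feeding, that library also differed from its group. When the lists were set, it was already known to differ in Scd1, a gene of the lipogenic list, and in Pnpla2. Of 17 tested PPAR alpha targets, 5 (29.4%) were more than 2-fold above both other CCl4 libraries in replicate 1 and 0 were as far below both. Of 17 tested lipogenic genes of the fed state, 7 (41.2%) were more than 2-fold below both and 2 above. Over all 11337 genes tested, 3.96% were as far above and 4.56% as far below. Of 19 other droplet and hydrolase genes, 14 genes of fatty acid uptake and 9 hypoxia targets, 0 were as far above. As far below were 3, 0 and 1 of them. The genes given next were picked after their values were seen. Cyp4a14, a target of the fatty acid receptor PPAR alpha, was at 772 CPM in replicate 1 and at 19.9 and 9.13 CPM in the other CCl4 libraries, with olive oil at 36.3 to 190 CPM. Pck1, an enzyme of glucose production, was at 3197 CPM there, near the 2428 to 3069 CPM of olive oil livers, and at 276 and 141 CPM in the others. Scd1, a desaturase of fat synthesis, was at 15.9 CPM there and at 573 and 1341 CPM in the others, with olive oil at 391 to 728 CPM. Within its group, replicate 1 was thus high in Cyp4a14 and Pck1 and low in Scd1. The part of food intake in the droplet genes of this library was not tested. For Dgat2, Mgll, Lipe, Gpat4, Abhd6 and Fitm1 it lay below every olive oil library, as the other CCl4 libraries did, and all 6 were called without it.

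**Figure D3:**
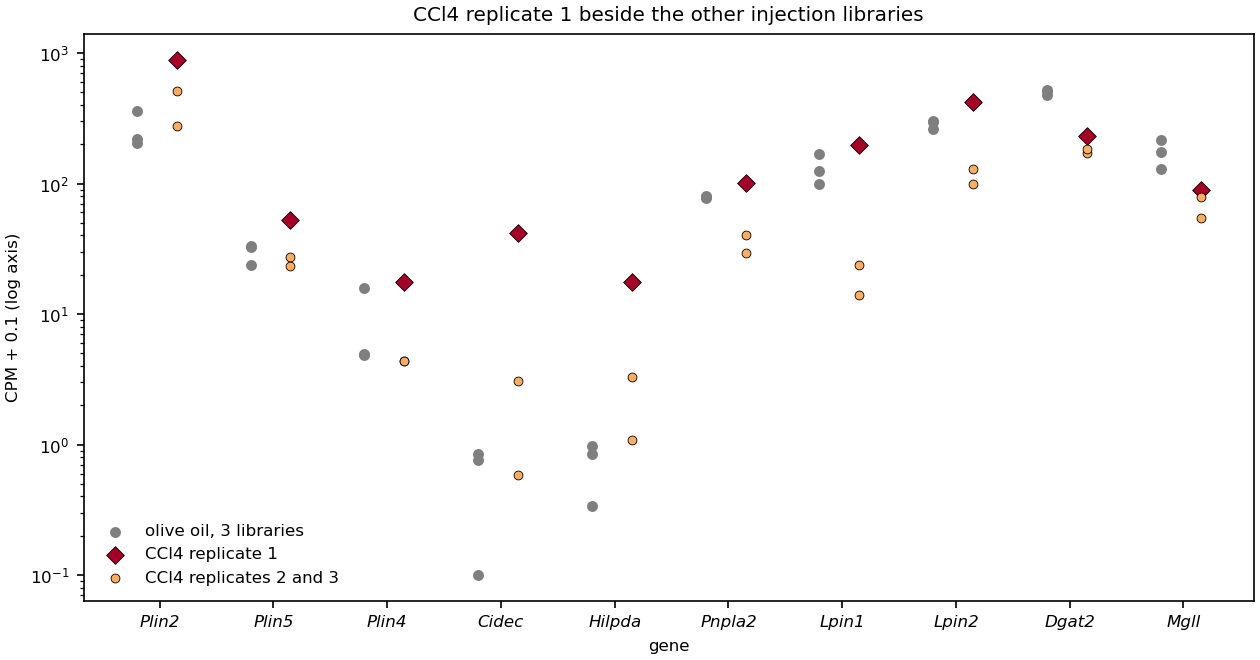
CPM + 0.1 (log axis) of 10 genes in the olive oil libraries (grey), CCl4 replicate 1 (diamond) and CCl4 replicates 2 and 3 (circles). The diamond lies above all other points for Plin2, Plin5, Plin4, Cidec, Hilpda, Pnpla2, Lpin1 and Lpin2, and below all olive oil points for Dgat2 and Mgll.

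The comparison of PH day 3 with PH day 0 asks the same after removal of liver tissue. Of 25 tested genes 3 were called, 12.0%, against 17.7% of all 10546 genes (9.73% rose and 8.01% fell). Dgat2 fell, and Lpin2 and Abhd6 rose. The median log2 fold change of the 25 was 0.07, against -0.01 over all genes. With library size scaling, which moved the median of all genes by 0.14, 4 rose and 1 fell, beside 1617 risen and 432 fallen over all genes. The pericentral markers summed to 7050 to 9542 CPM at day 0 and 3808 to 5857 CPM at day 3, with 4 of 8 fallen. The hepatocyte markers summed to 80651 to 93582 CPM and 119928 to 138908 CPM, with 1 of 8 risen and 2 fallen. Their part in these calls was not tested.

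Dgat2 was at 403, 369, 384, 444 and 397 CPM at day 0 and 262, 276, 236, 259 and 241 CPM at day 3. No day 3 library reached the lowest day 0 library. The change was -0.64 ± 0.09 (adjusted p = 7.8e-06), to 64.4% of the day 0 level, and it was called under all 20 alternatives (-0.67 to -0.50). Lpin2 (ENSMUSG00000024052, chr17:71182560-71249817, plus strand) was at 167, 180, 126, 171 and 119 CPM at day 0 and 260, 216, 233, 177 and 239 CPM at day 3, with 1 day 3 library inside the day 0 range. It rose by 0.57 ± 0.12 (adjusted p = 0.0029), and the call was lost in the 4-group fit (adjusted p = 0.29), where the spread of the CCl4 group enters.

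Abhd6 was at 15.1, 18, 21.5, 20.8 and 14.5 CPM at day 0 and 18.5, 24.9, 33.8, 34.7 and 21.1 CPM at day 3. The groups overlapped, and the rise of 0.57 ± 0.18 (adjusted p = 0.030) was lost without PH day 0 replicate 16 (adjusted p = 0.069), 12N (0.054) or 15 (0.087) and without PH day 3 replicate 14N (0.095) or 15 (0.12). Gpat4 was at -0.27 ± 0.11 (adjusted p = 0.083) and passed as lower without PH day 3 replicate 14N (-0.35, adjusted p = 0.025). G0s2, the inhibitor of Pnpla2, was at -0.56 ± 0.36 (adjusted p = 0.34) and passed as lower without PH day 0 replicate 15 (-0.78, adjusted p = 0.017). Plin2, the leading coat gene, was at 255, 356, 569, 273 and 326 CPM at day 0 and 299, 405, 297, 285 and 418 CPM at day 3. Its ranges overlapped and its change was -0.05 ± 0.23 (adjusted p = 0.91).

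The adipocyte droplet genes had their PH day 3 counts in the library with muscle and fat transcripts. Plin1, which coats the droplets of adipocytes, was at 2.05 CPM (9 counts) in replicate 12N and at 0 in the other 4 day 3 libraries. Cidea, a droplet protein of brown fat, was at 2.28 CPM (10 counts) there and at 0 in the others. Cidec was at 5.24 CPM there and 0 to 1.02 CPM in the others. The defining adipocyte markers Adipoq and Cfd were at 6.15 and 30.1 CPM in replicate 12N, with Adipoq at 0 in all other libraries of the series and Cfd at most 0.627 CPM in them. The brown fat markers Ucp1 and Cox8b were at 1.59 and 10.3 CPM there, and the sum of the 2 was at most 0.940 CPM elsewhere. Cidea also had counts in 2 CCl4 libraries, 8 in all and at most 0.737 CPM, where the brown fat markers were at 0. Of the 7 adipocyte markers 6 had counts in PH day 3 replicate 12N, and Lep had none in any library. Summed, they were at 54.7 CPM in it, 14.6 to 22.5 CPM in the other day 3 libraries and 14.0 to 25.5 CPM at day 0. Tshz2 made up most of the sum in every other library.

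Plin4 was at 18.9 CPM in replicate 12N and at 2.08, 7.83, 5.74 and 9.52 CPM in the others, against 2.30 to 4.53 CPM at day 0. Its change was 1.24 ± 0.43 (adjusted p = 0.055). Without replicate 12N it was 0.72 ± 0.39 (adjusted p = 0.23), and without replicate 13N, the day 3 library with the lowest value, it was called higher at 1.49 (adjusted p = 0.0032). Gpam was at 194 CPM in replicate 12N and at 118, 99.9, 99.7 and 156 CPM in the others, and did not pass at 0.39 ± 0.19 (adjusted p = 0.21). Dgat2, Lpin2 and Abhd6 were called without replicate 12N, at -0.65, 0.51 and 0.69 (adjusted p = 2.5e-05, 0.0088 and 0.010). Without both 12N and 14N, an alternative added after the values were seen, the same 3 were called and Gpat4 passed as lower (-0.36, adjusted p = 0.043).

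**Figure D4:**
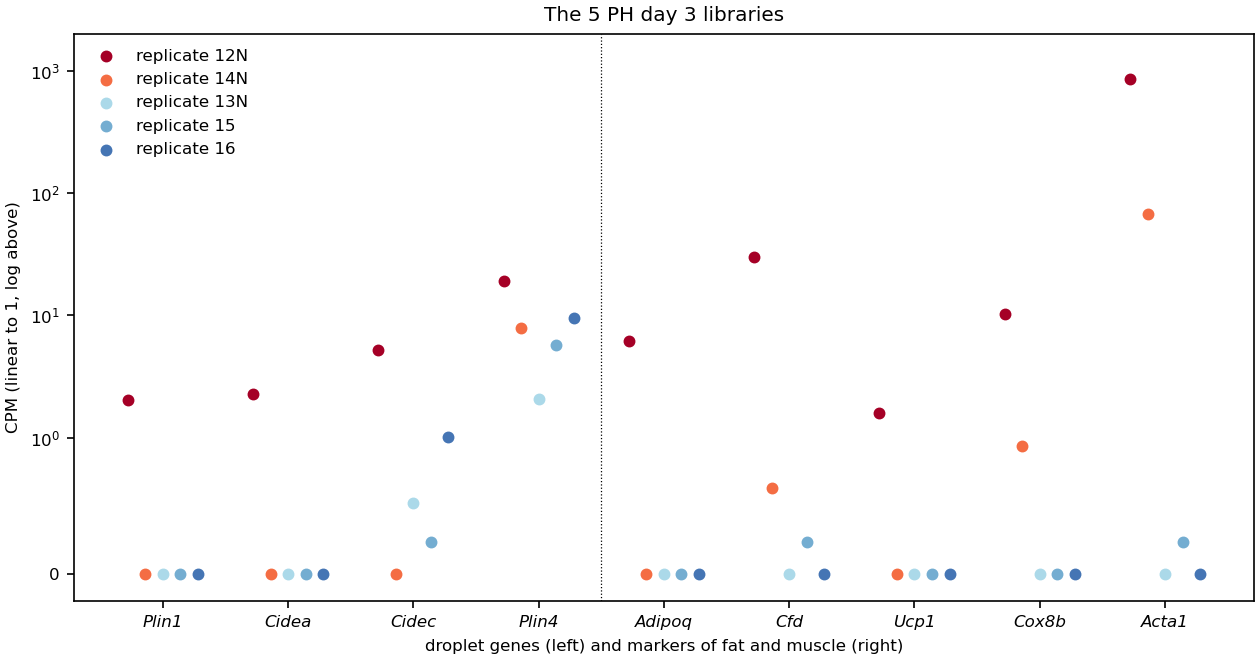
CPM (linear up to 1, log above) of 4 droplet genes and 5 markers of fat and muscle in the 5 PH day 3 libraries. Replicate 12N (dark red) is the highest for each of the 9 genes, with Plin1 and Cidea at 0 in the other 4.

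The difference between the responses, the change after CCl4 minus the change after PH, was tested in a fit of all 16 libraries, in which experiment and challenge cannot be told apart. Of 28 tested genes 5 were called, 17.9%, all toward a lower value after CCl4, against 5.33% of all 11868 genes (3.87% on that side). They were Fitm1, Dgat2, Mgll, Lipe and Abhd6. None was called on the higher side by edgeR, DESeq2 or limma-voom, and 2 (Hilpda and Plin2) had an unadjusted p under 0.05 in edgeR. The median of the 28 was -0.22, against 0.02 over all genes. Library size scaling moved the median of all genes by 0.28 and left only Fitm1 called, beside 153 lower and 481 higher over all genes. The count was 8 without CCl4 replicate 1, with Lpin1, Lpin2 and Pnpla2 added, and 3 without CCl4 replicate 2 or without olive oil replicate 3. Calls over all genes moved too. They were 687 lower and 244 higher without CCl4 replicate 1, against 459 and 174 with all libraries. Without CCl4 replicate 2 they were 320 and 99, and without olive oil replicate 3 they were 304 and 80.

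For Fitm1 the difference was -4.39 ± 0.51 (adjusted p = 1.5e-05). Its PH values, 10.6, 18.9, 7.18, 11.4 and 11.5 CPM at day 0 and 10.7, 10.6, 9.09, 6.20 and 12.2 CPM at day 3, overlapped. Dgat2 was lower in both responses, and the difference was -0.72 ± 0.16 (adjusted p = 0.0087). Mgll differed by -1.05 ± 0.24 (adjusted p = 0.0098). At PH it was at 116, 121, 155, 135 and 124 CPM and then 109, 129, 113, 90.5 and 136 CPM, a change of -0.16 ± 0.11 (adjusted p = 0.34).

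Abhd6 was the 1 gene called in opposite directions, and its difference was -1.13 ± 0.28 (adjusted p = 0.019). That call was lost in 4 of 25 alternatives, among them the fits without CCl4 replicate 2 (adjusted p = 0.051) or olive oil replicate 3 (0.085) and that with library size scaling (0.084). Lipe differed by -0.99 ± 0.28 (adjusted p = 0.036). Its PH values were 9.93, 18.1, 17.1, 21.3 and 13.8 CPM at day 0 and 14.8, 14.8, 17.5, 18.8 and 19.4 CPM at day 3. The Lipe call was lost in 14 of 25 alternatives, among them the fits without each of CCl4 replicates 2 and 3 and each olive oil library (adjusted p = 0.054 to 0.10) and without PH day 0 replicate 13 or 15 or PH day 3 replicate 14N, 15 or 16 (0.051 to 0.065). Each of the other 4 was called without PH day 3 replicates 12N and 14N, and Lipe was not (adjusted p = 0.057).

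**Figure D5:**
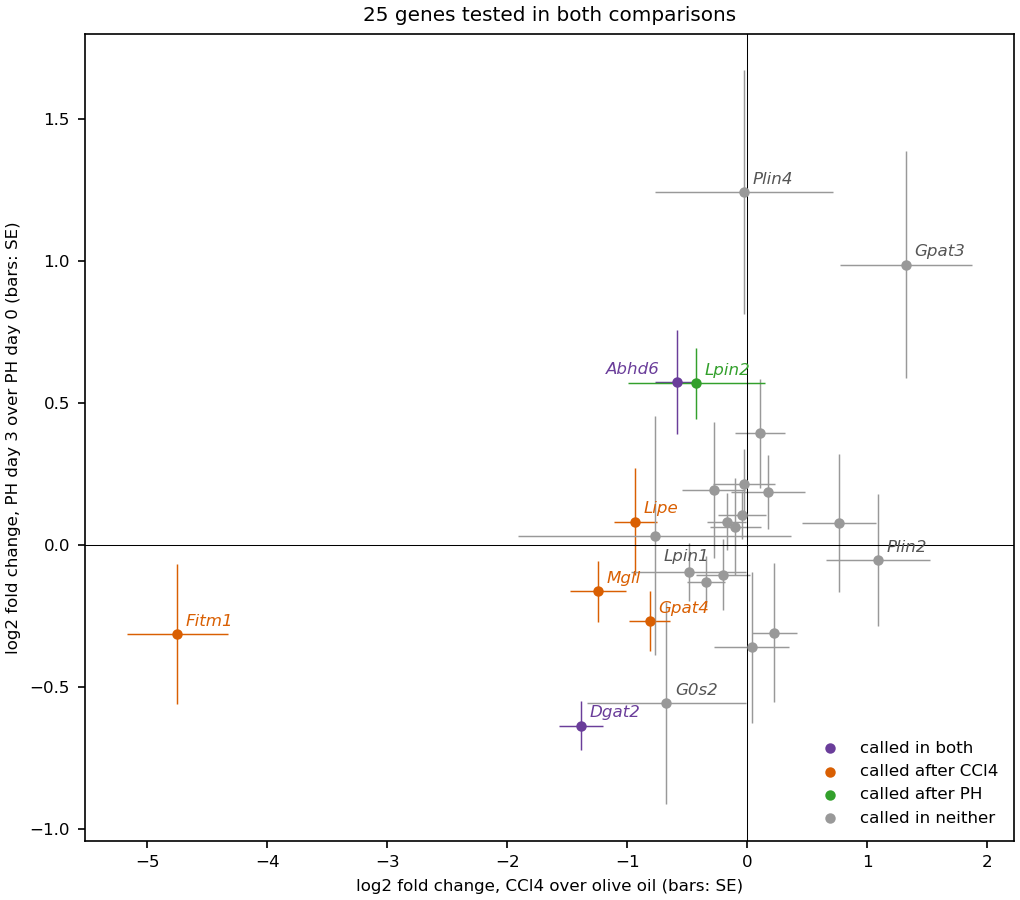
Log2 fold change after CCl4 (x) and after PH (y), with SE bars, for the 25 genes tested in both. Dgat2 is the 1 gene called lower in both, Abhd6 lies lower after CCl4 and higher after PH, and Fitm1 lies at -4.75 on the x axis and near 0 on the y axis.

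The remaining tested genes did not pass in any of the 3 comparisons. The lysophosphatidate acyltransferases Agpat1, Agpat2, Agpat3 and Agpat5 lay between -0.28 and 0.04 after CCl4 and between -0.36 and 0.19 after PH. Agpat2 was at 158, 142 and 153 CPM in CCl4 livers, against 195, 159 and 148 CPM. Cideb was at 172, 201 and 185 CPM, against 261, 219 and 218 CPM, which did not overlap but did not pass (-0.34 ± 0.16, adjusted p = 0.15). Plin3 and Plin5 were at -0.03 and 0.17 after CCl4 and 0.22 and 0.19 after PH. Abhd5, the activator of Pnpla2, was at 0.23 ± 0.19 and -0.31 ± 0.25. Gpat3 and Lpin3 were at 1.32 ± 0.55 and 0.77 ± 0.31 after CCl4 (adjusted p = 0.11 and 0.098), and Gpat3 was at 0.99 ± 0.40 after PH (adjusted p = 0.095). Without CCl4 replicate 1, Gpat3 was at 0.74 ± 0.48 and Lpin3 at 0.61 ± 0.33 (adjusted p = 0.27 and 0.19). After CCl4 both were called higher with library size scaling (adjusted p = 0.019 and 0.016), and Gpat3 also without a filter (0.0073).

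Another 6 genes were too low for every test: Agpat4, Mogat1, Mogat2, Plin1, Cidea and Pnpla3. Mogat1 had 15 counts in olive oil replicate 2, or 3.29 CPM, and at most 2 counts in every other library. Mogat2 was at 0 to 0.495 CPM at PH day 0 and 0.228 to 2.34 CPM at day 3. Pnpla3, a hydrolase of droplets that insulin induces, was at 0 to 2.30 CPM at day 0 and 1.15 to 4.10 CPM at day 3, with up to 18 counts in a library. Agpat4 was at most 1.73 CPM in any library. Gpat2 was tested in the injection experiment and the joint fit, at -0.05 ± 0.68 after CCl4, and Cidec and Hilpda for the difference between the responses, at 4.36 ± 2.26 and 3.18 ± 1.17 (adjusted p = 0.32 and 0.13). Without CCl4 replicate 1 these differences were 1.37 ± 1.6 and 1.45 ± 1.04 (adjusted p = 0.70 and 0.47). Without CCl4 replicate 3 the difference for Hilpda was called, at 3.71 (adjusted p = 0.032).

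Other genes of the droplet surface and of lipid hydrolysis gave 8 fallen and 1 risen of 19 after CCl4 (median -0.54), and 3 fallen and 5 risen of 19 after PH (median -0.03). That is 47.4% and 42.1% called, beside 22.9% and 17.7% of all genes. Ces3a, a carboxylesterase of the endoplasmic reticulum, fell in both, by 2.23 ± 0.31 and 1.13 ± 0.11. Ldah, a droplet hydrolase, was at -0.92 ± 0.15 and Pnpla8, a phospholipase, at -0.67 ± 0.14 after CCl4 (adjusted p = 0.0022 and 0.0075). The 1 risen gene, lysosomal acid lipase (Lipa), was at 0.48 ± 0.15 (adjusted p = 0.046), a call lost in 7 of 13 alternatives, including those without any 1 library other than CCl4 replicate 1. After PH, Tm6sf2 and Mttp, which load lipoproteins with triglyceride, rose by 1.20 ± 0.15 and 0.29 ± 0.10, Hsd17b13, a droplet protein of hepatocytes, by 0.74 ± 0.10, Lipa by 0.53 ± 0.09, and Lpl, the lipase of lipoprotein triglyceride, by 1.95 ± 0.31. Lpl was at 169 CPM in PH day 3 replicate 12N and 66.9 to 88.9 CPM in the others, and was called without it at 1.63 ± 0.16 (adjusted p = 5.3e-07). Lipc and Aup1 fell after PH as well, by 0.33 ± 0.09 and 0.30 ± 0.09. Tm6sf2 was called under all 20 alternatives, whereas the call of Mttp was lost in 9, including those without any 1 PH day 0 library or without PH day 3 replicate 13N or 16. The call of Aup1 was lost in 8, including those without PH day 0 replicate 12N or 14 or PH day 3 replicate 12N, 13N or 16. In the difference 4 of 19 were lower after CCl4, namely Ldah (-1.03), Lipc (-1.40), Ces3a (-1.06) and Tm6sf2 (-0.96). The call of Ces3a was lost without olive oil replicate 1, and that of Tm6sf2 without CCl4 replicate 2 or olive oil replicate 3. That of Tm6sf2 was also lost without PH day 3 replicates 12N and 14N together.

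Genes of fatty acid entry and activation were called in 6 of 14 after CCl4 (2 rose, 4 fell, median -0.03) and in 11 of 14 after PH (6 rose, 5 fell, median 0.08), or 42.9% and 78.6%, beside 22.9% and 17.7% of all genes. The fatty acid transporter Cd36 rose in both, by 1.22 ± 0.25 and 1.45 ± 0.20, and so did Acsl4, an acyl-CoA synthetase, by 0.74 ± 0.14 and 0.72 ± 0.13. Slc27a5, Slc27a2, Fabp1 and Acsl1 fell in both. The calls of Slc27a2 and Acsl1 after PH were lost without PH day 3 replicates 12N and 14N together and with library size scaling. Neither was lost when any 1 library was left out. The Fabp1 call after CCl4 was lost when olive oil replicate 1 or 3 or CCl4 replicate 3 was left out. Slc27a5 was at -1.47 ± 0.20 after CCl4 and -0.40 ± 0.09 after PH, and Acsl1 at -1.26 ± 0.24 and -0.48 ± 0.13. After PH the synthetase Acsl5 rose by 0.72 ± 0.10 and Fabp2, a binding protein, fell by 0.49 ± 0.16, a call lost in 8 of 20 alternatives, including those without PH day 0 replicate 13 or 14 or PH day 3 replicate 12N, 14N or 15. Fabp4, an adipocyte and macrophage binding protein, rose by 1.70 ± 0.51 (adjusted p = 0.049), with 48.1 CPM in replicate 12N. Without that library it was at 1.09 ± 0.28 (adjusted p = 0.0095). In the difference, 2 of 14 were called, Slc27a5 (-1.04) and Slc27a2 (-0.80), the second lost without CCl4 replicate 3 or olive oil replicate 3.

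Of the PPAR alpha targets that fasting raises, 1 rose and 3 fell of 17 after CCl4 (median -0.28), and 3 rose and 1 fell of 16 after PH (median 0.37). The shares called, 23.5% and 25.0%, are near or somewhat above the 22.9% and 17.7% of all genes. Pdk4, which spares glucose, rose by 4.17 ± 0.76 after CCl4, and Ppara and Cpt2 were among the fallen, by 1.05 ± 0.17 and 0.56 ± 0.15. The Pdk4 call was lost without olive oil replicate 3, and the Cpt2 call when olive oil replicate 1 or 3 or CCl4 replicate 2 or 3 was left out. After PH Acadm, Vnn1 and Acot1 rose by 0.49 ± 0.09, 0.80 ± 0.22 and 1.11 ± 0.36, the last lost without PH day 0 replicate 15 or 16 or PH day 3 replicate 12N, 14N or 16. The difference called 2 of 17, Acadm (-0.74) among them.

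Of the lipogenic genes of the fed state, 5 of 17 fell and none rose after CCl4 (median -0.81), and 2 rose and 2 fell of 17 after PH (median -0.06). The shares called were 29.4% and 23.5%, beside 22.9% (11.6% fallen) and 17.7% of all genes. The glucose-sensing factor Mlxipl fell in both, by 1.63 ± 0.28 and 0.41 ± 0.09, and the difference of -1.19 ± 0.25 was the 1 called of 17 (adjusted p = 0.0070). Nr1h3, Pparg, Thrsp and Mid1ip1 also fell after CCl4, by 0.57 ± 0.12, 1.89 ± 0.51, 3.91 ± 0.97 and 1.39 ± 0.39. The Thrsp call was lost in 9 of 13 alternatives, including those without any 1 of the 6 libraries. That of Mid1ip1 was lost in 7, including those without CCl4 replicate 2 or any 1 olive oil library, and that of Pparg in 4, including when olive oil replicate 1 or 3 or CCl4 replicate 3 was left out. After PH Mid1ip1 fell by 1.25 ± 0.34, while Acaca, the carboxylase that opens fatty acid synthesis, and the insulin adaptor Irs2 rose by 0.72 ± 0.17 and 1.39 ± 0.28. The Mid1ip1 call after PH was lost in 14 of 20 alternatives, among them limma-voom and the fits without any 1 library other than PH day 0 replicate 12N and PH day 3 replicate 12N.

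Among the hypoxia targets, 2 rose and 3 fell of 9 after CCl4, and 1 rose and 1 fell of 9 after PH, or 55.6% and 22.2%, beside 22.9% and 17.7% of all genes. After CCl4 Bnip3, Vegfa and Pdk1 fell by 1.35 ± 0.15, 1.01 ± 0.18 and 1.05 ± 0.22, and Ndrg1 and Ero1a rose by 1.92 ± 0.33 and 0.81 ± 0.23. After PH Vegfa fell by 0.63 ± 0.10 and Ero1a rose by 0.73 ± 0.23. The Ero1a call was lost after CCl4 without any 1 library other than CCl4 replicate 1, and after PH without PH day 0 replicate 12N, 15 or 16 or PH day 3 replicate 12N. The difference called 1 of 10, beside 5.33% of all genes. It was Bnip3 (-0.92), a call lost in 15 of 25 alternatives and in 13 of the 16 that leave out 1 library (all but CCl4 replicate 1, PH day 0 replicate 14 and PH day 3 replicate 15).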

How the data were processed

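Reads per gene in 16 mouse liver libraries were deposited by the authors as raw counts, 1 file per sample, with exon length as another column (unit other, in bases) per the file headers. Counting used featureCounts 1.6.2 on Ensembl release 95 (GRCm38), reverse-stranded, per the file headers, and STAR 2.5.1 and Subread are named per the submitters' processing notes. Symbols came from a gene name table that matched 54723 of 54838 identifiers.

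From the counts, edgeR 4.0.16 (R 4.3.3) gave quasi-likelihood F tests with TMM factors, filterByExpr (minimum count 10, minimum total 15) and Benjamini-Hochberg adjustment over all genes tested, with adjusted p under 0.05 as the call. CCl4 and PH were fitted separately, and the difference in 1 fit of 4 groups. SE is the absolute log2 fold change over the square root of F. All CPM values share TMM factors from the 16 libraries. TPM carries no such factor. It was used to compare genes with each other, by medians and ranges over the control libraries, and not to compare groups.

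The members and lists were chosen with earlier results of these data known. Named genes were the members called in any comparison, the 5 of highest TPM, and, of each other list, the 3 of smallest adjusted p and the risen or fallen where 5 or fewer. Some genes of these lists are not reported here. Members and genes that stood out in single libraries were added after their values were seen. Alternatives used DESeq2 1.42.0, limma 3.58.1 (voom), other scalings, filters and thresholds, a replicate block and each sample left out. No 2 files were identical, and replicates differed beyond sampling noise (chi-square over its degrees of freedom 5.51 to 72.3). The fits were tested on simulated data. Exons of Gpat3 and Pnpla3 overlap another gene on their strand over 7.40% and 6.78% of their length. Injection and PH samples are separate experiments per the file headers. Python 3.11.15, numpy 2.4.6, pandas 2.3.3, scipy 1.17.1 and matplotlib 3.10.9 made the tables and plots.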

Additional observations from a re-analysis of the deposited data

Results flagged for a closer look

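In 13 of 67 sets of 5 PH libraries, 1 library lay apart from the other 4 by Dixon's test (95% level). Chance flags about 1 in 20 sets of continuous values, but in 4 of the 13 the other 4 libraries were at 0, where any count gives the flag, so the number of flags cannot be set against that rate. At PH day 3 these were replicate 12N for Plin1 (2.05 CPM), Cidea (2.28 CPM) and Cidec (5.24 CPM), and replicate 13N for Cideb (243 CPM, others 190 to 203). At PH day 0, Abhd5 was at 73.9 CPM in replicate 16 (others 31.2 to 39.1), Agpat2 at 296 CPM in replicate 12N (others 209 to 226), and Plin1 at 0.393 CPM in the same library. Agpat3 was at 236 CPM (others 194 to 202), Pnpla2 at 78.3 CPM (others 60.4 to 65.1) and Mogat2 at 0.495 CPM in replicate 13. Gpat2 was at 4.53 CPM (others 0.690 to 1.70) and Mogat1 at 0.532 CPM in replicate 14, and Pnpla3 at 2.30 CPM in replicate 15.

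The change after CCl4 differed from that after PH, by the test of the difference itself, for Fitm1 (-4.39), Abhd6 (-1.13), Mgll (-1.05), Lipe (-0.99) and Dgat2 (-0.72), all on the log2 scale.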

How the results depend on the processing

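With a log2 change of 1 or more also required, calls were 3 after CCl4, 0 after PH and 3 for the difference (1461, 581 and 340 over all genes). At that size 1 gene of the list had an unadjusted p under 0.05 after PH in edgeR, and DESeq2 called 1. Without a filter on low counts, 10 of 33 tested genes of the list were called after CCl4 and 8 of 34 after PH. Over all genes that setting called 1656 risen and 1603 fallen of 19592 after CCl4. After PH it called 1409 and 988 of 20257. Library size scaling gave 5 after PH and 1 for the difference, and an adjusted p under 0.01 left 3 for the difference (255 over all 11868 genes). Leaving out 1 library at a time gave 3 to 8 calls for the difference. The causes of these changes were not tested, other than the stricter thresholds themselves.

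The PH labels share numbers, and the labels do not say what a shared number stands for. Same-numbered samples correlated at -0.048 to 0.111 in their deviations from the group means (0.048 to 0.111 for identical labels), and 2 of the 5 correlated best with their own number, so pairing was neither shown nor excluded and was not assumed. A replicate block on the digits gave 5 calls after PH (3 without it), and a replicate block on identical labels gave 1 for the difference (5 without it), Fitm1, with Mgll, Dgat2, Abhd6 and Lipe at adjusted p = 0.103, 0.116, 0.096 and 0.080. On identical labels the Abhd6 call after PH was lost too (adjusted p = 0.078). Over all genes, the block on the digits called 1034 risen and 830 fallen of 10546 after PH. The block on identical labels called 107 lower and 32 higher of 11868 for the difference. Scored singly, genes and lists gave 2692 results under alternatives scored as same, 268 weaker, 58 stronger, 60 moved and 0 called values of opposite sign. Same stands for a call kept, an uncalled gene shifted by less than its SE, or a list count near the main one. Weaker and stronger stand for a call lost or gained, or a list count further off. Moved genes were uncalled in both fits with a larger shift. Depth limits the genes near 3 counts.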
